A study of Mus musculus with 8 samples.

Results

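Vascular smooth muscle cells that overexpressed THOC5 and were kept in osteogenic medium were compared with cells that overexpressed green fluorescent protein (GFP) and stayed in growth medium, over all genes measured. The comparison uses 2 libraries of each kind, which is 4 of the 8 libraries of the series, chosen by their labels and not by any measured value. All cells were primary cells of mouse vascular smooth muscle, the tissue that contracts the arterial wall. The GFP cells carry the genotype label WT and serve as the overexpression control, and the THOC5 cells are labelled as overexpressing THOC5. Osteogenic medium is described in the series design as inorganic phosphate (Pi) given for 6 days, a culture model of arterial calcification. The other 4 libraries are 2 of GFP cells in osteogenic medium and 2 of THOC5 cells in growth medium, and they are used here to place each remaining change. The vector, its promoter, the number of mice and the mouse strain and age are not given in the labels. Nor do the labels say that replicates were separate cultures, so the p-values below measure only the spread between these libraries, which may be technical. The 2 groups differ in both the added gene and the medium, and the comparison asks how close THOC5 cells in phosphate were to untreated control cells and which genes still set them apart.

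High phosphate drives smooth muscle cells away from their contractile state and towards a bone-like, mineral-depositing state in which contractile proteins are lost. THOC5 is a subunit of the THO complex, a part of the TREX machinery that packages newly made mRNA and hands it to the nuclear export receptor. The group of genes that matters most below is the interferon response. In that response, sensors of foreign or misplaced nucleic acid switch on interferon beta through IRF factors, secreted interferon binds its receptor, and a transcription factor complex then switches on interferon-stimulated genes at a promoter element called the interferon-stimulated response element (ISRE). Products of these genes block virus entry and translation, tag proteins with the ubiquitin-like modifier ISG15, and raise antigen display on MHC class I.

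The 4 libraries compared held between 7058681 and 10581042 reads, and values below are normalized counts, which are reads divided by a size factor for each library. A count of 3 reads, the upper limit that a count of 0 allows, corresponded to between 2.59 and 3.99 normalized counts over the 8 libraries. On the first principal component of 10655 genes with a mean of at least 50 normalized counts over the 8 libraries (76.3% of the variance) the GFP osteogenic libraries scored 49.2 and 38.5, and the other 6 libraries between -21.2 and -10.7. THOC5 osteogenic libraries lay at -10.7 and -15.7 on that axis, beside -12.1 and -13.4 for GFP growth. The second component held 8.17% of the variance and set THOC5 osteogenic libraries apart, at -11.99 and -9.84. All other libraries scored between -4.59 (GFP growth 2) and 13.93 (THOC5 growth 1) on it. The compared groups were thus close on the first component and did not overlap on the second. The smooth muscle genes checked (Acta2, Tagln, Myh11, Cnn1, Mylk, Actg2, Lmod1 and Smtn) had reads in every library. Of the macrophage markers, Ptprc, Adgre1, Itgam and Aif1 were at or near 0 in all groups, whereas Cd14 (206 to 776 normalized counts over the 8 libraries), Lyz2 (142 to 244), Cd68 (111 to 246) and Csf1r (64.9 to 102) had reads in every library, and fibroblast genes such as Dcn and Pdgfra were well expressed in all of them. Over 15 fibroblast markers the summed level was 38841 to 43210 normalized counts in GFP growth and 40809 to 45309 in THOC5 osteogenic libraries. These are bulk libraries, so fewer cells of a type and less RNA per cell cannot be told apart.

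Thoc5 itself (chromosome 11, 4895320 to 4928867, GRCm38) was looked at first, since it bears on the overexpression label. GFP growth libraries had 458 and 471 normalized counts and THOC5 osteogenic libraries 1780 and 1937. The 2 groups were well apart, with a 3.99-fold higher level in THOC5 cells (log2 2.00 ± 0.15 SE, limma adjusted p = 2.83e-04). In the other groups it was at 649.5 and 615 (GFP osteogenic) and at 2155 and 1406 (THOC5 growth).

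Few genes separated the 2 groups. Of 22575 genes tested with limma, 81 passed an adjusted p of 0.05 (0.359%), of which 78 were higher in THOC5 osteogenic cells (0.346%) and 3 were lower (0.0133%). A change of at least 2-fold was reached by 33 of the 81 (0.146% of genes tested), 32 of them higher. The 81 genes all had both libraries of one group beyond both of the other, an arrangement that 16.9% of all genes showed upward and 18.6% downward. All 81 were also called by edgeR's quasi-likelihood test and by DESeq2 on the recovered reads, which called 117 (0.518%) and 120 genes (0.532%). For 10446 of the 10621 genes with a mean of at least 50 normalized counts, the 95% interval of the difference lay within 2-fold in either direction, and over all 22575 genes tested this held for 11698 (51.8%).

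**Figure D1:**
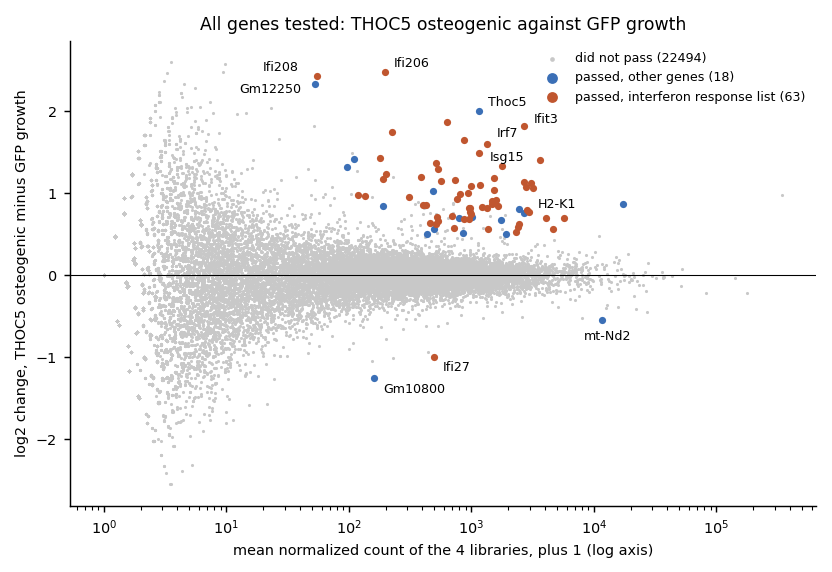
Each point is 1 of the 22575 genes tested, with its mean normalized count over the 4 libraries plus 1 on a log axis and its log2 change in THOC5 osteogenic against GFP growth cells on the vertical axis. The 63 interferon-list genes that passed (orange) and the 18 others that passed (blue) lie above 0 except Ifi27, mt-Nd2 and Gm10800.

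The count of genes depends on having both libraries of each group. Without GFP growth 1, GFP growth 2, THOC5 osteogenic 1 or THOC5 osteogenic 2, limma called 0, 0, 0 and 1 gene (1649, 1519, 1091 and 808 at an unadjusted p below 0.05), with the lone library assumed to vary like the other groups. On the recovered reads edgeR called 41, 56, 34 and 47 in the same order, of which 40, 52, 33 and 47 were among the 81. On the 4 compared libraries alone limma called 0 genes (1740 unadjusted) and edgeR 129. Limma called 42 and 41 genes without GFP osteogenic 1 or 2, which enter the estimate of spread, and 7 when every gene with any read was tested. All 81 genes kept their direction in every setting tried.

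The same medium moved many more genes in GFP cells. Between GFP osteogenic and GFP growth libraries 4698 genes passed the limma test (20.8% of those tested), 2314 higher (10.3%) and 2384 lower (10.6%). At least 2-fold changes made up 5.49% of genes tested. Of these 4698 genes, 66 (1.40%) also passed in THOC5 osteogenic cells, all in the same direction, and they make up 81.5% of the 81. Both comparisons use the same 2 GFP growth libraries, so their values are only set side by side. The 494 genes that had risen at least 2-fold in GFP cells had a median log2 change of 1.65 there and of 0.14 in THOC5 osteogenic cells, where 26 of them passed. Those 26 included 22 genes of the interferon list, and the other 4 were Ube2l6, Mpeg1, Tgtp1 and Gm12250. edgeR and DESeq2 called 31 and 30 of the 494, all higher. An unadjusted limma p below 0.05 was found for 114 of the 494, 94 of them higher. Outside the interferon list this held for 86 of 465 genes, 66 of them higher, where the share over all genes tested was 5.99%. Smaller remaining rises in these genes are therefore not excluded. The 745 genes that had fallen at least 2-fold had a median of -1.49 in GFP cells and of -0.03 in THOC5 osteogenic cells. None of the 745 passed in THOC5 osteogenic cells with limma, edgeR or DESeq2 (0, 0 and 0 genes), and 42 had an unadjusted limma p below 0.05, 33 of them lower. Examples are Clca3a2, with 1985 and 1989.96 normalized counts in GFP growth, 24.2 and 71.6 in GFP osteogenic and 1610.2 and 1839.8 in THOC5 osteogenic libraries, and the kinesin Kif26b, with 784 and 814, then 32.0 and 59.9, then 843 and 987.

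Most genes that still passed, 63 of 81, were on the interferon response list. Of 107 measured genes in the interferon list, 62 were higher and 1 was lower in THOC5 osteogenic than in GFP growth cells by limma, against 0.346% and 0.0133% of all genes. The list's median log2 change was 0.83, beside -0.005 over all genes tested. The list was drawn up with earlier results of these data known, so its count describes these libraries. edgeR called 81 members higher, and without 1 compared library it called between 29 and 47, where limma called 0 or 1. Without GFP osteogenic 1 or 2 limma called 31 and 31, and with every gene above 0 tested it called 5. In GFP cells the osteogenic medium moved 74 members up and 5 down, with a median of 0.70. In THOC5 cells in growth medium no member passed, and the list's median against GFP growth was -0.21.

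The ubiquitin-like modifier gene Isg15 (chromosome 4, 156199424 to 156200818, GRCm38) had the smallest adjusted p of all genes tested. Its normalized counts were 582 and 630.1 in GFP growth and 1756 and 1637 in THOC5 osteogenic libraries, 2.80-fold higher (log2 1.48 ± 0.10 SE, limma adjusted p = 1.62e-04). GFP cells in osteogenic medium were at 1641 and 1704, and THOC5 cells in growth medium at 539.7 and 463. All 4 osteogenic libraries thus lay above all 4 growth libraries. Of 6 measured genes of the ISG15 pathway 4 rose with limma. The ligase genes Herc6 and Trim25 did not pass with limma but were higher with edgeR and DESeq2. The activating enzyme gene Uba7 rose from 515 and 533 to 1043 and 955, the conjugating enzyme gene Ube2l6 from 299.5 and 344 to 678 and 635, and the ISG15 protease gene Usp18 from 1153 and 1062 to 2104 and 2086.

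**Figure D2:**
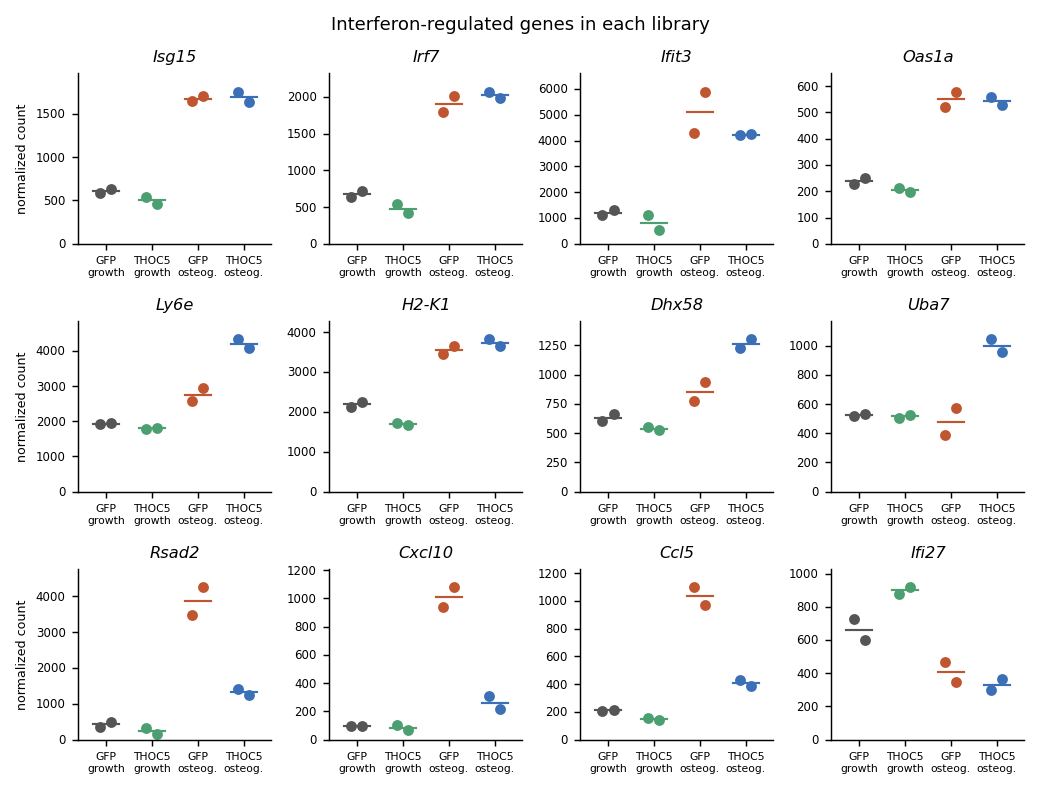
Normalized counts of 12 interferon-regulated genes in each library (points; 2 per group) with the group mean (line), on linear axes that start at 0. Isg15, Irf7, Oas1a and H2-K1 sit at similar heights in both osteogenic groups, Ly6e, Dhx58 and Uba7 are highest in THOC5 osteogenic libraries, and Rsad2, Cxcl10 and Ccl5 are highest in GFP osteogenic libraries.

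Among the transcription factors of the pathway, 1 of 7 IRF genes rose. Irf7, which amplifies interferon production, rose from 632 and 713 normalized counts to 2073 and 1984, 3.02-fold (log2 1.59 ± 0.12 SE, limma adjusted p = 2.83e-04). Stat2, a subunit of the factor that binds the ISRE, rose from 2049 and 2151 to 3595 and 3662. The groups did not overlap for either gene. The interferon genes and receptors themselves did not pass in this comparison, where 0 of 7 measured members passed with limma, edgeR or DESeq2 and 1, Ifnb1, had an unadjusted p below 0.05. Ifnb1, which encodes interferon beta, had 2.33 and 0 normalized counts in GFP growth, 4.54 and 8.45 in THOC5 osteogenic, 26.8 and 39.4 in GFP osteogenic and 1.93 and 0 in THOC5 growth libraries. The growth libraries thus lay under the level that 3 reads give. The receptor genes Ifnar1 and Ifnar2 had log2 changes of 0.11 and 0.17 with adjusted p = 0.881 and 0.819 (limma).

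Sensors of RNA and DNA formed the next group. Of 22 measured genes of nucleic acid sensing, 6 rose and none fell, with a list median of 0.36, and all 6 also stand on the interferon list. Dhx58, which encodes the RNA helicase LGP2, rose from 600.2 and 661 normalized counts to 1228 and 1301 (log2 1.00 ± 0.11 SE, limma adjusted p = 0.00236). Ifih1, which encodes the long-RNA sensor MDA5, rose from 683 and 722 to 1249 and 1229.7, and Zbp1, a sensor of Z-form nucleic acid, from 848 and 1014 to 2103 and 2126. Adar, whose enzyme edits adenosines in double-stranded RNA, rose less, from 1074 and 1138 to 1588 and 1678 (log2 0.56 ± 0.09 SE). The RIG-I gene Ddx58 passed with edgeR and DESeq2 but not with limma (log2 0.57, limma adjusted p = 0.0874). So did Tlr3 (log2 0.81, limma adjusted p = 0.190).

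The antiviral effectors came next. Among IFIT genes, whose proteins bind foreign mRNA caps, 3 of 6 measured members rose with limma, and Ifit1bl2 was higher with edgeR only. Ifit3 went from 1111 and 1299 to 4205 and 4259 normalized counts, 3.52-fold (log2 1.82 ± 0.26 SE, limma adjusted p = 0.0137), and Ifit1 from 1814 and 2164 to 5460 and 5019. Of 11 genes of the oligoadenylate synthetase (OAS) and OAS-like family, whose active enzymes trigger RNA decay on double-stranded RNA, 5 rose with limma by between 1.14 and 1.30 on the log2 scale. Oas1b, among these, is annotated as a polymorphic pseudogene. Oas1g and Oasl1 were higher with edgeR and DESeq2 only. Oas1a rose from 226 and 249 to 559 and 528 normalized counts (log2 1.19 ± 0.10 SE, limma adjusted p = 7.93e-04). Of 11 genes of the PYHIN family, which includes DNA-binding interferon-induced proteins, 6 rose with limma, by between 0.62 and 2.47 on the log2 scale. Mndal was higher with edgeR and DESeq2 only, and Ifi203 with edgeR only. Ifi206 had the largest log2 change of the 78 risen genes, from 59.4 and 58.5 to 334 and 329 normalized counts, 5.55-fold (log2 2.47 ± 0.24 SE, limma adjusted p = 0.00176). Members of the IFIT, OAS and PYHIN families resemble each other in sequence, and how shared reads were counted is not given in the sources used here, so the split of reads among them is uncertain.

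Immunity-related GTPases, which attack the vacuoles of intracellular parasites, rose in 6 of 7 measured members (Igtp, Iigp1, Irgm1, Irgm2, Tgtp1 and Gm12250). Igtp and Irgm2 overlap on the same strand of chromosome 11, so the split of reads between them is uncertain. Gm12250 is annotated as a processed pseudogene. Of 10 guanylate-binding protein genes, 2 rose with limma, Gbp2 and Gbp3. Gbp4, Gbp5, Gbp7 and Gbp9 were higher with edgeR and DESeq2 only. Igtp stood at 343 and 362 normalized counts in GFP growth and at 821 and 742 in THOC5 osteogenic libraries. Of 14 membrane proteins of the IFITM, Ly6 and Bst2 families 5 rose (Bst2, Ifitm3, Ly6a, Ly6c1 and Ly6e). Bst2, which encodes tetherin, rose from 1817 and 1760 to 3930.2 and 3630 (log2 1.08 ± 0.11 SE, limma adjusted p = 0.00212). Of 12 PARP genes, 4 rose with limma, among them Parp14 from 1005 and 1085 to 1972 and 1844. Parp11 was higher with edgeR and DESeq2 only. Antigen display genes rose by smaller amounts. In the MHC class I family 5 of 19 members rose with limma, by between 0.66 and 0.77 on the log2 scale. Of 12 genes for peptide cutting and loading Psmb8, Psmb9 and Tap1 rose with limma. Tapbp and Nlrc5 were higher with edgeR and DESeq2 only, and Psmb10 with edgeR only. H2-K1 rose from 2114 and 2257 to 3818 and 3651 normalized counts (log2 0.77 ± 0.08 SE, limma adjusted p = 0.00212). B2m, the light chain that all class I molecules share, passed with edgeR and DESeq2 and not with limma (log2 0.48, limma adjusted p = 0.0647). Class I genes are near copies of one another, so their single values are uncertain in the same way as those of the families above.

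Many of the risen genes hold the letters of an ISRE near their start site. Promoters from 250 bases before to 50 bases after the start were matched in RefSeq (GRCm38.p6) for 61 of the 78 risen genes. The ISRE letters GAAA, any 2 bases, GAAA, searched on both strands with overlapping matches allowed, were found in 33 of these 61 genes (54.1%), beside 3.99% of 27025 genes with a promoter in the table. As a count of promoters it was 35 of 81 (43.2%) beside 3.44% of 32851. A second element, the antioxidant response element TGACNNNGC through which NRF2 acts, was in 18.5% of the promoters of risen genes and in 12.4% of all promoters. The 50 ISRE matches had a median position of -58.5 bases from the start. No promoter in the table matched the 3 fallen genes. A match is a description of the letters and not a binding site. The 250 bases before the start are shown for 3 genes at similar levels in both osteogenic groups (Isg15, Oas1a and Ifit3) and for 2 that were lower in THOC5 than in GFP osteogenic cells (Rsad2 and Cxcl10), each 5′ to 3′ along the gene's strand in GRCm38.p6, with the ISRE letters on either strand in capitals.
Isg15 (chr4:156200819-156201068, minus strand): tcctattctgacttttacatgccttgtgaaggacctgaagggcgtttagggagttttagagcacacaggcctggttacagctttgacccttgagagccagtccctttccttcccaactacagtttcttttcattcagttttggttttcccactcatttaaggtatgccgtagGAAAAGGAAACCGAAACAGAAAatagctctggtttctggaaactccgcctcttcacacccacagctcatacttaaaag
Oas1a (chr5:120907526-120907775, minus strand): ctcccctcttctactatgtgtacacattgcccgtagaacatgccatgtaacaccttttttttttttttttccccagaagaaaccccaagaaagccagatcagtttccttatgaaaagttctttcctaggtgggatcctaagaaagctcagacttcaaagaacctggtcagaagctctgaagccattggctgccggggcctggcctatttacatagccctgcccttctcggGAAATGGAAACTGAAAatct
Ifit3 (chr19:34583279-34583528, plus strand): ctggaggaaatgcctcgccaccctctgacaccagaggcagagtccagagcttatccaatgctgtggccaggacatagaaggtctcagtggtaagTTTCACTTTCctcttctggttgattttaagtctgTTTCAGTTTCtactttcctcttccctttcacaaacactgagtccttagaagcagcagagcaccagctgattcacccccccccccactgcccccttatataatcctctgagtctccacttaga
Rsad2 (chr12:26456453-26456702, minus strand): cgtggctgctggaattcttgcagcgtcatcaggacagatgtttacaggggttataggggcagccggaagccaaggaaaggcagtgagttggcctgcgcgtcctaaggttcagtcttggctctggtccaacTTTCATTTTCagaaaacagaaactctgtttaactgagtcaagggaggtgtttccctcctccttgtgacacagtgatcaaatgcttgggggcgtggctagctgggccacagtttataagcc
Cxcl10 (chr5:92348890-92349139, minus strand): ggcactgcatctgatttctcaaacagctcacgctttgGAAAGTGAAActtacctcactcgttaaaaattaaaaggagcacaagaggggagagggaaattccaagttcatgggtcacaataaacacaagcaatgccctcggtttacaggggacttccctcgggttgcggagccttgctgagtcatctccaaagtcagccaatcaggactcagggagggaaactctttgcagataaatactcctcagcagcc
In Isg15 3 matches overlap, starting at -78, -72 and -66, and in Oas1a 2 overlap at -20 and -14. Ifit3 has matches at -156 and -122, Rsad2 at -120 and Cxcl10 at -213. The genes shown thus all hold these letters, with differences in number and distance. Other genes of both kinds had no match. Irf7 and H2-K1, at similar levels in both osteogenic groups, had none, nor had Cmpk2 and Ifi35, which were lower in THOC5 cells. Ifi207, also lower in THOC5 cells, had its match at -41. Ifi206, which did not pass between the osteogenic groups, had its match at -40. The genes shown therefore do not describe either kind as a whole.

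Within osteogenic medium some interferon genes differed between THOC5 and GFP cells, as did many genes outside the list. Of the 62 list members that rose against GFP growth, 44 did not pass between THOC5 osteogenic and GFP osteogenic libraries, 11 were higher and 7 were lower in THOC5 cells, in a comparison in which 11.3% of all genes were higher, 10.7% lower and 22% either. Both comparisons use the same THOC5 osteogenic libraries, so picking members that rose against GFP growth favours higher calls here. Over all 107 measured members of the list, 18 were higher and 9 lower. For Isg15, Irf7 and Oas1a the differences were 0.02 (95% interval -0.19 to 0.23), 0.09 (-0.17 to 0.36) and -0.01 (-0.24 to 0.22) on the log2 scale. Intervals of some other genes were wider, as the plot of these differences shows.

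**Figure D3:**
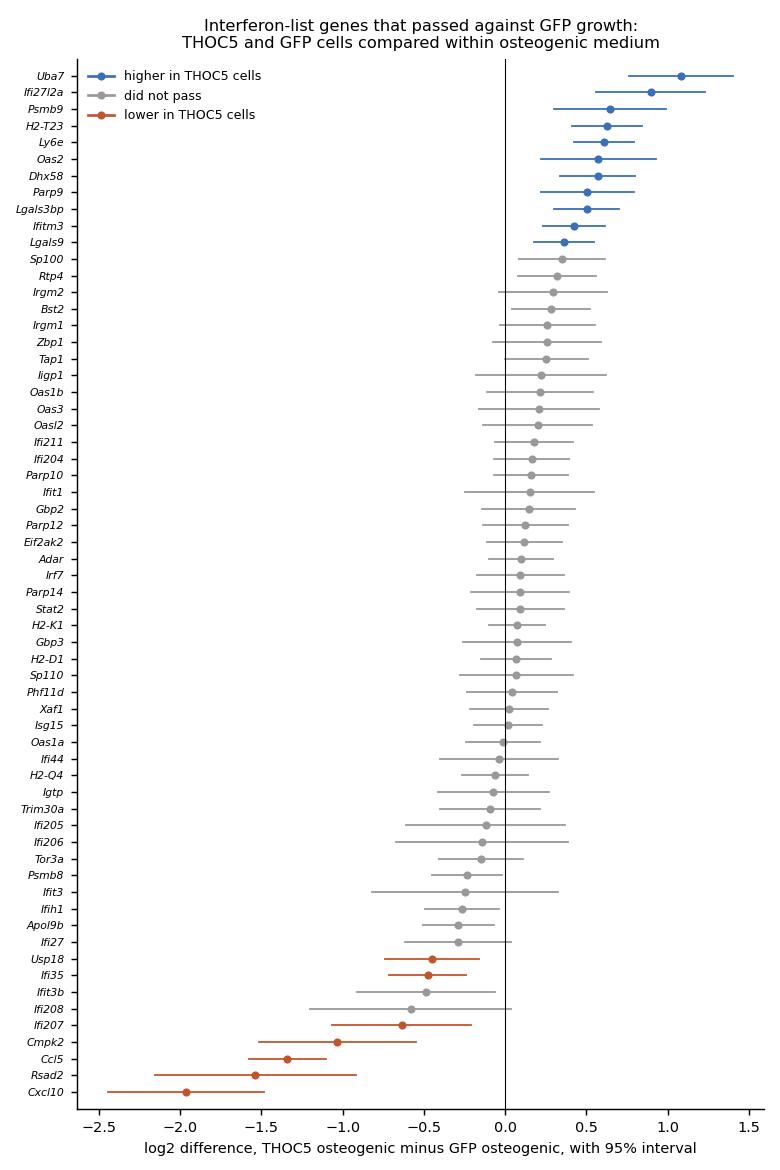
Log2 difference between THOC5 osteogenic and GFP osteogenic libraries (point) with its 95% interval (bar) for 62 of the 63 interferon-list genes that passed against GFP growth. Genes higher in THOC5 cells (11, blue) run from Lgals9 to Uba7, and genes lower in THOC5 cells (7, orange) include Cxcl10, Rsad2, Ccl5 and Cmpk2.

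The 7 lower genes were Cxcl10, Rsad2, Ccl5, Cmpk2, Ifi207, Ifi35 and Usp18. Cxcl10, which encodes a chemokine for T cells, was at 93.2 and 97.0 normalized counts in GFP growth, 311 and 213 in THOC5 osteogenic and 941 and 1079 in GFP osteogenic libraries. It was thus 2.69-fold above the control in THOC5 cells and 10.5-fold above it in GFP cells, and the difference between the osteogenic groups was -1.96 ± 0.22 SE (limma adjusted p = 1.09e-04). Rsad2, which encodes the antiviral enzyme viperin, was at 358 and 497, then 1403 and 1249, then 3481 and 4250.3 (difference -1.54 ± 0.28 SE, limma adjusted p = 0.00249). Ccl5, another chemokine gene, was at 207 and 211, then 432 and 383, then 1098 and 969 (difference -1.34 ± 0.11 SE, limma adjusted p = 1.41e-05). For these 3 genes THOC5 osteogenic libraries lay between the other groups, with no overlap.

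The 11 higher genes were Uba7, Ifi27l2a, Psmb9, H2-T23, Ly6e, Oas2, Dhx58, Parp9, Lgals3bp, Ifitm3 and Lgals9. Ly6e, whose membrane protein restricts the entry of some viruses, was at 1910.04 and 1939 normalized counts in GFP growth, 4328 and 4078 in THOC5 osteogenic and 2581 and 2937 in GFP osteogenic libraries (THOC5 minus GFP within osteogenic medium 0.61 ± 0.08 SE, limma adjusted p = 4.50e-04). Uba7 was at 388 and 571 in GFP osteogenic libraries, near its 515 and 533 in GFP growth, and at 1043 and 955 in THOC5 osteogenic libraries (1.08 ± 0.15 SE, limma adjusted p = 3.76e-04).

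The 15 genes that passed in THOC5 osteogenic cells without passing in the GFP medium response were Thoc5, 8 interferon-list genes (H2-T23, Ifi27l2a, Ifitm3, Lgals3bp, Lgals9, Parp9, Psmb9 and Uba7), Ly6a, Ly6c1, Rnf213, Plekha4, mt-Nd2 and Gm10800. Against GFP growth 13 of them were higher and 2 lower in THOC5 osteogenic cells. Rnf213, a large ubiquitin ligase that interferon induces, had the highest level of the risen genes. Its normalized counts were 12367 and 12309 in GFP growth, 22732 and 22265 in THOC5 osteogenic, 13259 and 17979 in GFP osteogenic and 11787 and 10112 in THOC5 growth libraries. Against GFP growth it was 1.82-fold higher in THOC5 osteogenic cells (log2 0.87 ± 0.14 SE, limma adjusted p = 0.0211). Plekha4, a phosphoinositide-binding adaptor gene, was at 145 and 126, 244 and 240.3, 109 and 129.7, and 122 and 122 in the same order. Ly6a, which encodes the surface protein Sca-1, and Ly6c1 stand on the list of fibroblast markers, where they were 2 of 15 members to rise and none fell. Ly6a was at 2028 and 1993, then 3519 and 3306, and the summed level of that list overlapped between GFP growth and THOC5 osteogenic libraries. Other fibroblast markers such as Col14a1 (3109 and 2958, then 2984 and 3142) did not pass (limma adjusted p = 0.989).

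Of the 14 risen or fallen genes that stood on no list, 13 rose, and several are known as interferon-inducible. Helz2, a helicase gene, stood at 1746 and 1854 normalized counts in GFP growth and at 3253 and 3028 in THOC5 osteogenic libraries. Znfx1, an RNA helicase that senses viral RNA, stood at 1334 and 1359.9, then 2192 and 2108. Mpeg1, which encodes the pore-forming protein perforin-2, stood at 55.9 and 63.8, then 154 and 168, with 149 and 165 in GFP osteogenic libraries. The remaining genes were Ube2l6, Trafd1, Plekha4, Shisa5, Tgtp1, Gm12250, Rnf213, Daxx, H2-T22, Tcirg1 and the fallen Gm10800. Mpeg1 is also known from macrophages, whose summed marker level over the 12 list genes in the table was 958 to 1183 in GFP growth and 967 to 1143 in THOC5 osteogenic libraries, so the groups overlapped.

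Thoc5 was the one member of the THO and TREX list to rise (1 of 25, none fell). The subunit gene Thoc1 stood at 508 and 491 normalized counts in GFP growth and at 426 and 389.5 in THOC5 osteogenic libraries, a difference that did not pass (-0.29, limma adjusted p = 0.636). The export receptor gene Nxf1 stood at 1002 and 993, then 1123 and 1001.

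In THOC5 cells kept in growth medium these genes did not pass, other than Thoc5. The median log2 change of the 78 risen genes in that group against GFP growth was -0.21, and Thoc5 was the only gene of 22575 to pass with limma (0.00443%). Irf7 was at 543 and 417 and Ifit3 at 1104 and 531 in THOC5 growth libraries. Between THOC5 osteogenic and THOC5 growth libraries 122 genes passed (0.54%), 120 of them higher (0.532%), of which 76 were among the 78 risen genes. The other 2 of the 78 were Thoc5 and Trafd1. These comparisons share the THOC5 osteogenic libraries and are therefore not independent of each other.

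No contractile gene passed between THOC5 osteogenic and GFP growth cells. Of 34 measured contractile genes 0 passed with limma, edgeR or DESeq2, none had an unadjusted p below 0.05, and the 95% interval lay within 2-fold for 31. Their median log2 change was -0.03, beside -0.67 in GFP osteogenic cells, where 26 fell and 1 rose. Acta2, which encodes smooth muscle actin, was at 23089 and 19635 normalized counts in GFP growth, 20106 and 21961 in THOC5 osteogenic and 9489 and 11175 in GFP osteogenic libraries. Its difference from GFP growth was -0.02 (95% interval -0.28 to 0.24). Mylk, the kinase that switches on smooth muscle myosin, was at 908 and 592, then 673 and 809, then 96.9 and 119 (0.01, 95% interval -0.38 to 0.40). Myh11, the smooth muscle myosin heavy chain, was at 139.8 and 109, then 95.4 and 113, then 32.9 and 37.6, and its interval ran from -0.65 to 0.15. In each of these genes the THOC5 osteogenic and GFP growth libraries overlapped and both lay above GFP osteogenic libraries.

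**Figure D4:**
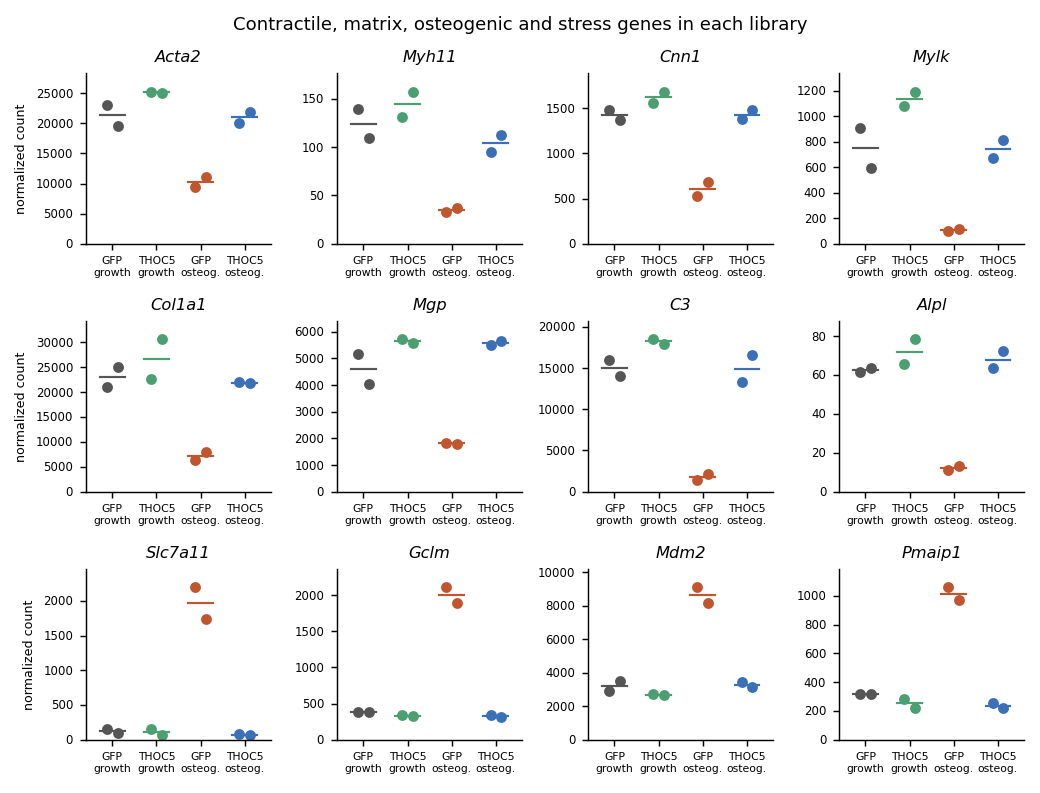
Normalized counts of 12 contractile, matrix, complement, osteogenic and stress genes in each library (points; 2 per group) with the group mean (line), on linear axes that start at 0. GFP osteogenic libraries stand apart in every panel, and THOC5 osteogenic libraries lie near GFP growth libraries. Acta2, Myh11, Cnn1 and Mylk were lower in both THOC5 osteogenic than in both THOC5 growth libraries (Mylk 673 and 809 against 1076 and 1193). No contractile gene passed between these groups with limma, and the contractile list's median log2 difference was -0.19.

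No gene of the matrix lists passed either. Of 22 collagens, 42 other matrix genes and 35 matrix proteases and inhibitors, 0, 0 and 0 passed with limma, edgeR or DESeq2, and 1, 3 and 3 had an unadjusted limma p below 0.05. Their median log2 changes were 0.05, -0.01 and 0.01, beside -1.20, -1.09 and -0.70 in GFP osteogenic cells, where 19, 36 and 25 members fell. Col1a1, the main fibrillar collagen gene, was at 20937 and 25031 normalized counts in GFP growth, 21928 and 21771 in THOC5 osteogenic and 6311 and 8014 in GFP osteogenic libraries (-0.07, 95% interval -0.41 to 0.28). Mgp, whose product inhibits calcification, was at 5174 and 4037, then 5509.6 and 5658, then 1843 and 1800.5. Its 2 THOC5 osteogenic libraries lay above both control libraries, with a difference of 0.29 (95% interval 0.05 to 0.52) that did not pass (limma adjusted p = 0.783). Col12a1 went the other way, at 5328 and 6278 in GFP growth and 4393 and 4461 in THOC5 osteogenic libraries (-0.39, limma adjusted p = 0.636). Eln, the elastin gene, had too few reads to be tested.

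Bone-related genes showed no remaining change that passed. Of 23 osteochondrogenic genes and 21 genes of calcification inhibition and phosphate handling, 0 and 0 passed with limma, edgeR or DESeq2, and 2 and 1 had an unadjusted limma p below 0.05. The interval lay within 2-fold for 12 of the 23 and 14 of the 21. In GFP osteogenic cells these lists showed no general rise either. Of the 23, 4 rose and 6 fell there (median log2 change -0.29). Of the 21, 3 rose and 6 fell (median -0.20). Runx2, the master regulator of bone formation, was at 797 and 723 normalized counts in GFP growth, 696 and 603 in THOC5 osteogenic and 464 and 568 in GFP osteogenic libraries (-0.23, 95% interval -0.53 to 0.07). Spp1, which encodes osteopontin, was at 299.5 and 234, then 414 and 361, then 1192 and 468 (0.55, 95% interval -0.14 to 1.23, limma adjusted p = 0.819). Its THOC5 osteogenic libraries lay above both controls and below both GFP osteogenic libraries. Alpl, the mineralizing alkaline phosphatase gene, was at 61.8 and 63.8, then 63.6 and 72.3, then 11.2 and 13.4. The phosphate transporter gene Slc20a1 was at 428 and 340.3, then 313 and 337, then 738 and 651.

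**Figure D5:**
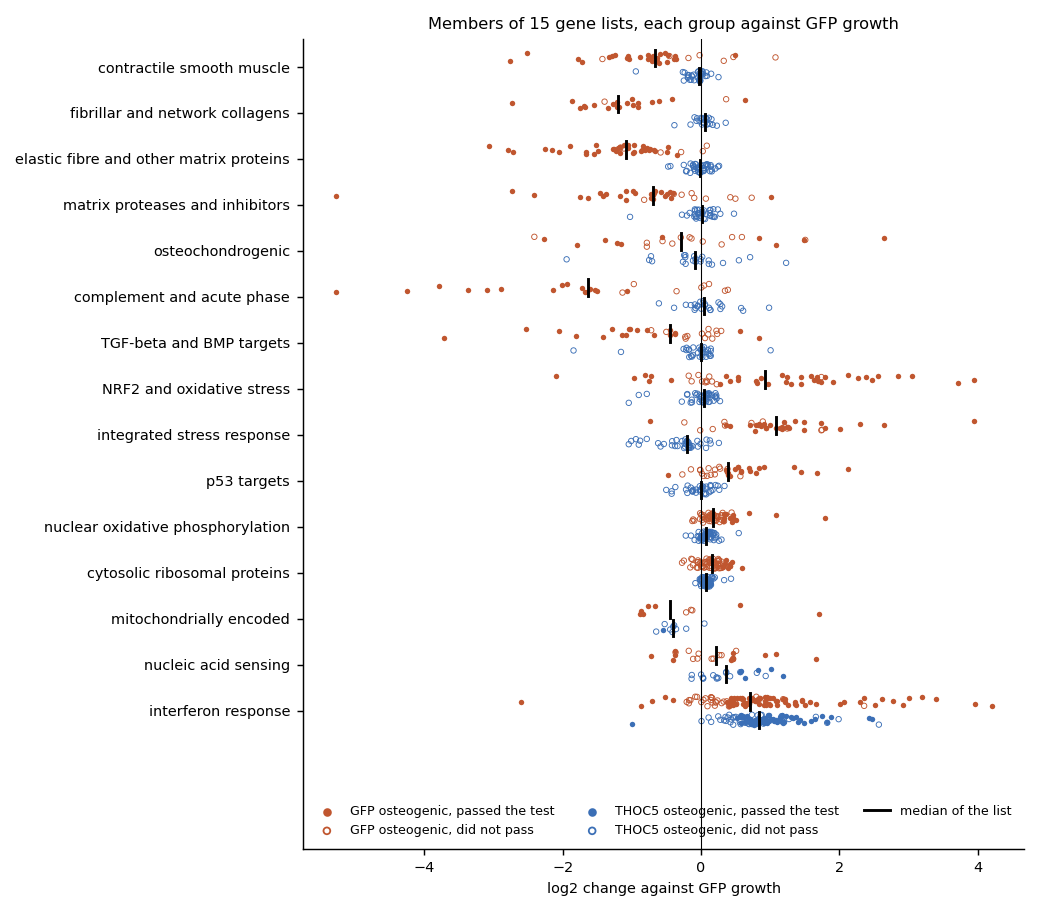
Log2 change of each measured member of 15 gene lists against GFP growth, in GFP osteogenic (orange) and THOC5 osteogenic cells (blue), with filled points for members that passed and a bar at the list's median. Blue points of the contractile, matrix, osteochondrogenic, complement and stress lists have medians between -0.21 and 0.05, and the interferon and nucleic acid sensing lists keep medians of 0.83 and 0.36.

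No gene of the stress lists passed in THOC5 osteogenic cells. Of 48 NRF2 and oxidative stress genes, 35 p53 targets and 41 genes of the integrated stress response, 0, 0 and 0 passed with limma, edgeR or DESeq2, while 2, 5 and 3 had an unadjusted limma p below 0.05. In GFP osteogenic cells 31, 19 and 29 of them rose. Slc7a11, the cystine importer gene, was at 158 and 101 normalized counts in GFP growth, 75.4 and 60.1 in THOC5 osteogenic and 2199 and 1735 in GFP osteogenic libraries. Both THOC5 osteogenic values were below both controls, with a difference of -0.90 (95% interval -1.68 to -0.12) that did not pass (limma adjusted p = 0.787). Gclm, a subunit of the enzyme that limits glutathione synthesis, was at 386 and 376, then 346 and 316, then 2113 and 1894. The integrated stress list had a median of -0.21, beside -0.005 over all genes. Psat1, an enzyme of serine synthesis on that list, was at 816 and 494, then 429.8 and 396, then 1789 and 1477 (-0.62, limma adjusted p = 0.787). The p53 target Pmaip1, which encodes the cell-death protein NOXA, was at 316 and 319 in GFP growth and at 252 and 222 in THOC5 osteogenic libraries (-0.43, limma adjusted p = 0.591), against 1059 and 968 in GFP osteogenic libraries.

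Genes of secreted defence proteins were also lower in GFP osteogenic cells. Of 24 complement and acute-phase genes, 16 fell in GFP osteogenic cells and 0 passed in THOC5 osteogenic cells with limma, edgeR or DESeq2, with 2 at an unadjusted p below 0.05. Complement C3 was at 15924 and 14018 normalized counts in GFP growth, 13283 and 16531 in THOC5 osteogenic and 1389 and 2199 in GFP osteogenic libraries. C4b was at 732 and 634, then 948 and 1094, then 125 and 227, so that its THOC5 osteogenic libraries lay above both controls (0.58, limma adjusted p = 0.785). Ccn2, a connective tissue growth factor gene, was at 3483 and 2655, then 1980.1 and 2313 (-0.51, limma adjusted p = 0.548), and it passed with DESeq2 only. In total 39 of the 44 lists with a measured member had 0 members passing with limma. Their 1038 genes gave 1 call with edgeR (Npc2) and 2 with DESeq2 (Npc2 and Ccn2), and 56 had an unadjusted limma p below 0.05, 25 higher and 31 lower. At a p of 0.05 the share over all genes tested was 5.99%.

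The 3 fallen genes were Ifi27, mt-Nd2 and Gm10800. Ifi27 (chromosome 12, 103434211 to 103440239, GRCm38), which encodes a mitochondrial and nuclear-envelope protein of the interferon-induced IFI27 family, was at 724 and 597 normalized counts in GFP growth, 296 and 366 in THOC5 osteogenic, 465 and 349 in GFP osteogenic and 879 and 918 in THOC5 growth libraries. It was 1.99-fold lower in THOC5 osteogenic cells (log2 -0.99 ± 0.15 SE, limma adjusted p = 0.0195) and also fell in GFP osteogenic cells (-0.70, limma adjusted p = 0.00635). Its neighbour Ifi27l2a (chromosome 12, 103442167 to 103443680) went the other way, from 589.7 and 487 to 1003 and 1127. The library kit does not mark strand, and the 2 genes do not overlap in GENCODE M21.

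mt-Nd2, a subunit gene of respiratory complex I on the mitochondrial chromosome (3914 to 4951, GRCm38), was at 13243 and 14383 normalized counts in GFP growth, 9898 and 9052 in THOC5 osteogenic, 12032 and 13277 in GFP osteogenic and 12196 and 12465 in THOC5 growth libraries. It was lower by 0.54 ± 0.10 SE on the log2 scale (log2 -0.54, limma adjusted p = 0.0422). Of 10 measured mitochondrial genes it alone passed with limma, 4 passed with edgeR and 7 with DESeq2, all lower, and the list's median was -0.41. A lower median was not particular to THOC5 osteogenic cells. In GFP osteogenic cells the list's median was -0.44, and 5 members fell and 2 rose with limma. The mitochondrial share of reads was 2.29% and 2.36% in GFP growth and 1.89% and 1.74% in THOC5 osteogenic libraries, and 1.89% and 2.02% in GFP osteogenic libraries. Its part in the mt-Nd2 result was not tested. Of 55 nuclear genes of oxidative phosphorylation 0 passed with limma, edgeR or DESeq2, with 1 at an unadjusted p below 0.05. The predicted gene Gm10800, which falls outside the rule for naming genes and is given because only 3 genes fell, was at 175 and 278, then 97.2 and 86.4 (log2 -1.26 ± 0.19 SE, limma adjusted p = 0.0211). It was at 179 and 165 in GFP osteogenic and at 100 and 114 in THOC5 growth libraries. Against GFP growth the log2 difference was thus -1.04 in THOC5 growth cells, where it did not pass with limma, and -0.35 in GFP osteogenic cells.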

How the data were processed

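Polyadenylated RNA of 8 libraries was sequenced. The submitters' processing notes name FastQC, Bowtie2, MACS2, SAMtools and mm10 without saying which served these libraries; how reads were assigned to genes is not given in the sources used here. The authors deposited size-factor normalized counts per gene (a signal scale, not raw counts). Every value of 27249 genes was a whole multiple of 1 step per library (217992 values, 100% whole within a tolerance of 1e-06), so reads were recovered by dividing by that step. RIP-seq samples were not analysed here.

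The main test was limma 3.58.1 with trend in R 4.3.3 on log2(normalized count + 1), over all 8 libraries with 4 group means (4 residual degrees of freedom), on 22575 genes with at least 1 normalized count in at least 2 libraries, with Benjamini-Hochberg adjustment and a threshold of 0.05. Fold changes are on that scale and understate low genes. edgeR 4.0.16 quasi-likelihood and DESeq2 1.42.0 on recovered reads were alternatives, beside other scalings, pseudocounts, filters and left-out libraries. Counts were also simulated from means pooled over the 8 libraries, with changes placed in 100 genes each with a mean of at least 50. There (21443 genes tested) 60% of 1.5-fold and 98% of 2-fold changes were recovered, and 4.24% of 165 calls were false. The simulation held no medium response of GFP cells and gave every group the same dispersion. In the real libraries replicates differed more in GFP growth than in THOC5 osteogenic cells, so real recovery may differ.

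The genes and lists were chosen with earlier results of these data known. Named genes are Thoc5, a short core list, the 15 risen and 15 fallen genes of largest change that passed with libraries apart and a mean of at least 50, the 8 largest each way in the GFP response, and up to 4 and 2 members per list by p; predicted genes were left out. Family groups and any other named gene were chosen after values were seen. Coordinates are from GENCODE M21 (GRCm38); promoters are RefSeq's. The kit does not mark strand, so reads of overlapping genes cannot be told apart. The values of 1 gene are not reported here.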

Additional observations from a re-analysis of the deposited data

How the results depend on the processing

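Against 81 genes with limma (78 higher, 3 lower), edgeR called 117 (7 lower) and DESeq2 120 (12 lower) on the recovered reads. Library totals gave 69, TMM factors 81, pseudocounts of 0.5 and 5 gave 67 and 83, and a filter of 10 gave 106 (6 lower). Testing every gene above 0 left 7, all higher and 0 lower, and 5 interferon members. With only the 4 compared libraries limma called 0 (0 higher, 0 lower, 0 interferon members; 1740 at an unadjusted p below 0.05), where edgeR called 129 (122 higher, 7 lower). Leaving out 1 library, limma called 0 to 58 genes, 0 to 58 of them higher and 0 lower, and 0 to 50 interferon members; without GFP growth 1, GFP growth 2 and THOC5 osteogenic 1 the 0 calls came with 1649, 1519 and 1091 unadjusted. edgeR without GFP growth 1, THOC5 osteogenic 1 and THOC5 osteogenic 2 called 41, 34 and 47 (39, 33 and 46 higher; 2, 1 and 1 lower), with 33, 29 and 38 interferon members, and 56 without GFP growth 2 (1 lower). The cause of these shifts was not tested beyond the fewer samples or larger gene sets that the settings themselves bring. The labels do not say whether the replicate numbers pair the libraries. Deviations of same-numbered libraries correlated at 0.402 between GFP growth and THOC5 growth. In the other pairs of groups they correlated at between -0.188 and 0.136. A replicate block gave 77 genes (75 higher, 2 lower). The crossed pairing, tried after the data were seen, gave 87 (82 higher, 5 lower). The edgeR fits on fewer libraries were also chosen after the data were seen. All 81 genes kept their sign in every setting; of gene and setting pairs, 1167 kept their side of the threshold and 801 did not. Depth limits low genes: the interval was within 2-fold for 11698 of 22575 genes.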
